A study of Mus musculus with 13 samples.

Results

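The comparison set 2 libraries of mouse oocytes taken 4 and 6 h after 0.2 Gy of γ-irradiation against 3 libraries taken 4 h (2 libraries) and 6 h (1 library) after 0.5 Gy. These are 5 of the 13 libraries of the series, and they were chosen by dose and time alone, not by any measured level. Ovaries of female CD-1 mice at postnatal day P5, the age at which nearly all oocytes rest in primordial and primary follicles, were cultured overnight and irradiated (caesium source). The oocytes of several pooled ovaries were freed with trypsin and collected by centrifugation before RNA was amplified and sequenced as short paired reads. No transgene or mutation is named for any group, and the protocol is given as the same for all apart from dose and time. The labels call the 0.2 Gy libraries the third generation and the 0.5 Gy libraries the first or second, without saying what a generation is, so dose and generation cannot be told apart in any value below. There was 1 library of 0.2 Gy at each time, so the libraries of 4 and 6 h were pooled into one late group, and the spread within a dose holds the change between these times as well. The 5 late libraries held between 25263647 and 28169108 estimated reads. The 4 libraries of 0.5 Gy and 2 of 0.2 Gy at 0 h (before irradiation) and 1 h gave the same contrast as background. They were also part of the fit, where they helped to estimate the spread, and of a test of the change in the dose difference.

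Resting oocytes carry a large store of TAp63α, a member of the p53 family that stays inactive until DNA double-strand breaks are sensed by the kinases ATM and CHK2. Once active, it binds the same DNA elements as p53 and switches on the same classical targets, among them genes of cell cycle arrest, of feedback onto p53 and of apoptosis, and the oocyte dies. A higher dose gives more breaks, and 0.2 and 0.5 Gy are both in the range that kills most primary oocytes, more slowly at the lower dose. The question of the comparison was which transcripts had different levels at the lower dose once the response was under way.

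The levels of classical p53 targets were mostly lower 4 to 6 h after 0.2 Gy than after 0.5 Gy. Of 39 targets grouped by role, 32 had a lower mean level at 0.2 Gy, and for 18 of them (46.2%) both 0.2 Gy libraries lay below all 3 of 0.5 Gy. The same held for 11% of all 28162 genes tested, and the reverse, both 0.2 Gy libraries above all 3, held for 2 of the 39 targets (5.13%) against 11.2% of all genes. Levels are given as CPM, counts scaled to a common library size. The median difference of the 39 (0.2 Gy minus 0.5 Gy) was -0.53 on the log2 scale, against -0.01 over all genes tested. No single gene passed the test. By edgeR's quasi-likelihood test with Benjamini-Hochberg adjustment, 0 of 28162 genes (0%) had an adjusted p under 0.05 and a difference above 1 on the log2 scale, the smallest adjusted p being 0.528, while 1626 genes had an unadjusted p under 0.05. Of these, 2.78% of all genes tested were lower and 2.99% higher at 0.2 Gy. DESeq2 on the same counts and groups called 63 genes (0.316% of the 19926 to which it gave an adjusted p), 29 higher and 34 lower at 0.2 Gy, and 1 p53 target, Ccng1, was among them.

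**Figure D1:**
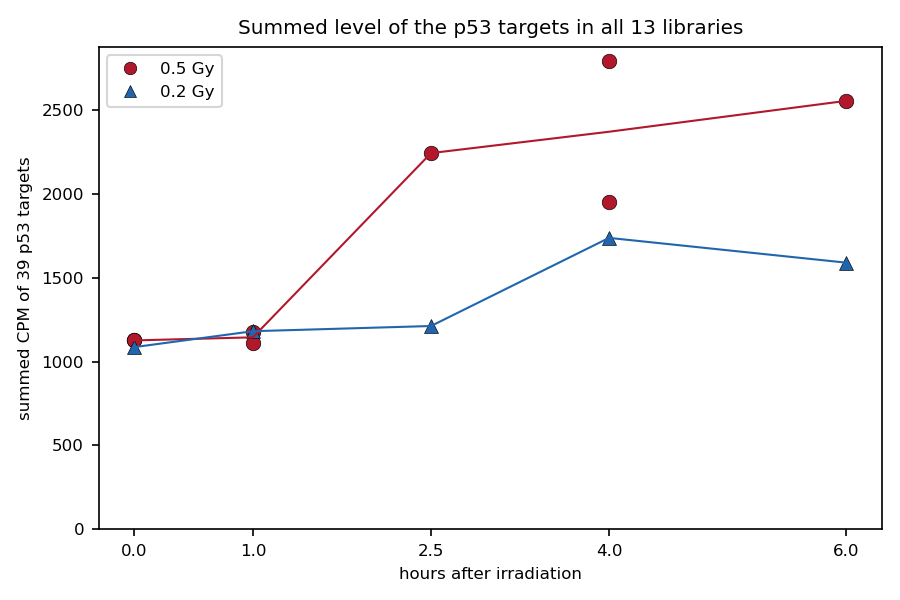
Summed level of the 39 p53 targets in CPM (y axis, from 0) against hours after irradiation (x axis) in all 13 libraries, red circles for 0.5 Gy and blue triangles for 0.2 Gy, with lines through the mean at each time. At 4 and 6 h the 0.2 Gy libraries stood at 1738 and 1590 and the 0.5 Gy libraries at 1951, 2792 and 2556, while all 6 libraries at 0 and 1 h lay between 1086 and 1181. The labels put replicate 1 of 4 h after 0.5 Gy in the first generation, and replicate 2 and the 6 h library in the second. The only late library of the first generation was the one of 0.5 Gy closest to 0.2 Gy in the summed level of the targets (1951 CPM, against 2792 and 2556 CPM in the second). With the generation of the 0.5 Gy libraries as a replicate block, edgeR called 1 gene late, the non-target AY036118, and the median of the 39 was -0.45. Without replicate 1 of 4 h it was -0.665.

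The p53 element consists of decamers with a central C and G around a pair of A or T bases, flanked by purines on one side and pyrimidines on the other. RefSeq promoter windows (GRCm38.p6), from 250 bases before to 50 after the gene start, were found for 30 of the 39 targets, and 11 of these windows (36.7%) held an exact p53 decamer, against 8.36% of all 32851 windows. Of these targets, 7 had both late low-dose libraries below all high-dose ones, and the matches are shown for 6 of them and for Mdm2. The other, Polk, is not shown because the start that RefSeq gives lies well inside the gene as the GENCODE annotation places it. Each line gives 30 bases around the match, 5′ to 3′ on the strand of the gene, with the decamers in capitals. A match of letters is a description of these windows only, and the motif reads the same on both strands.
Ccng1, chr11:40755452-40755481, minus strand: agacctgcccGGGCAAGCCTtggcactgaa
Cdkn1a, chr17:29090896-29090925, plus strand: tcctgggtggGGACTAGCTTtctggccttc
Cdkn1a, chr17:29090918-29090947, plus strand: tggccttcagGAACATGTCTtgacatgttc
Bax, chr7:45467080-45467109, minus strand: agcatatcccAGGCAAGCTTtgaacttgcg
Ei24, chr9:36797325-36797354, minus strand: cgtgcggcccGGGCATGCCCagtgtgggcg
Ppm1d, chr11:85311112-85311141, plus strand: gggcgggggcGAGCTTGCTCttcttgactc
Siva1, chr12:112644600-112644629, plus strand: gctgtgacatAAACTAGCCCcgccccaaca
Mdm2, chr10:117710925-117710954, minus strand: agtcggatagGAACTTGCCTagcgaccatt

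The dose differences of targets with and without the decamer lay close together, and were not tested against each other. The 11 targets with a decamer in the window had a median late difference of -0.61 on the log2 scale and in 7 of them both low-dose libraries lay below all high-dose ones, against 11% of all genes. The 19 without one had a median of -0.53, and the same held for 8 of these.

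Among the 8 targets that act in cell cycle arrest, 7 were lower at 0.2 Gy, with a median difference of -0.54 on the log2 scale. At 0 and 1 h 4 of the 8 were lower, and the median was -0.08. Ccng1, which encodes cyclin G1 (chromosome 11, 40748552 to 40755311 on GRCm38), stood at 192, 317 and 246 CPM in the 0.5 Gy libraries of 4 h replicate 1, 4 h replicate 2 and 6 h. In the 0.2 Gy libraries it stood at 95.8 CPM at 4 h and 124 CPM at 6 h. Both low-dose values were below every high-dose value, and the mean of 252 ± 62.3 CPM (SD, n = 3) at 0.5 Gy was 2.28-fold that of 110 ± 20.2 CPM (SD, n = 2) at 0.2 Gy. The difference of -1.19 ± 0.27 (SE) on the log2 scale had an adjusted p of 0.733 by edgeR and 0.0225 by DESeq2. At 0 and 1 h Ccng1 was lower on average at 0.2 Gy as well (-0.445 on the log2 scale). It stood at 45.45 and 44.12 CPM there against 44.95 to 80.06 CPM at 0.5 Gy.

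Cdkn1a encodes p21, the inhibitor of cyclin-dependent kinases through which p53 stops the cell cycle (chromosome 17, 29090976 to 29100727). Its level was 45.7, 93.5 and 63.0 CPM in the 3 libraries of 0.5 Gy and 33.6 and 22.8 CPM in those of 0.2 Gy at 4 and 6 h. The groups did not overlap, and the highest level was in replicate 2 of 4 h after 0.5 Gy, with replicate 1 the closest to the low dose. The difference of -1.26 ± 0.48 (SE) on the log2 scale, with a 95% interval from -2.30 to -0.21, did not pass the test (adjusted p = 0.841 by edgeR). At 0 and 1 h the same contrast had the opposite direction, 0.66 on the log2 scale, with levels of 3.71 to 11.5 CPM at 0.5 Gy and of 6.78 and 13.8 CPM at 0.2 Gy. Late minus early, the level of Cdkn1a differed by 3.38 on the log2 scale at 0.5 Gy and by 1.45 at 0.2 Gy, and the difference between these values (-1.92) had an adjusted p of 0.546 by edgeR.

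The other arrest genes had smaller differences or low levels, and those given here overlapped between the doses. Plk2, a polo-like kinase, stood at 75.3, 140 and 117 CPM after 0.5 Gy and at 65.9 and 88.2 CPM after 0.2 Gy, which overlapped. Btg2, an antiproliferative target, ranged from 148 to 203 CPM at 0.5 Gy and was at 160 and 108 CPM at 0.2 Gy. Sfn, which encodes 14-3-3σ, was at 4.08 to 9.19 CPM against 5.67 and 3.65 CPM. Its difference on the log2 scale was -1.13 early and -0.56 late. Rprm was near the limit of detection, between 0.467 and 1.96 CPM at 0.5 Gy and at 0.148 and 0.882 CPM at 0.2 Gy.

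**Figure D2:**
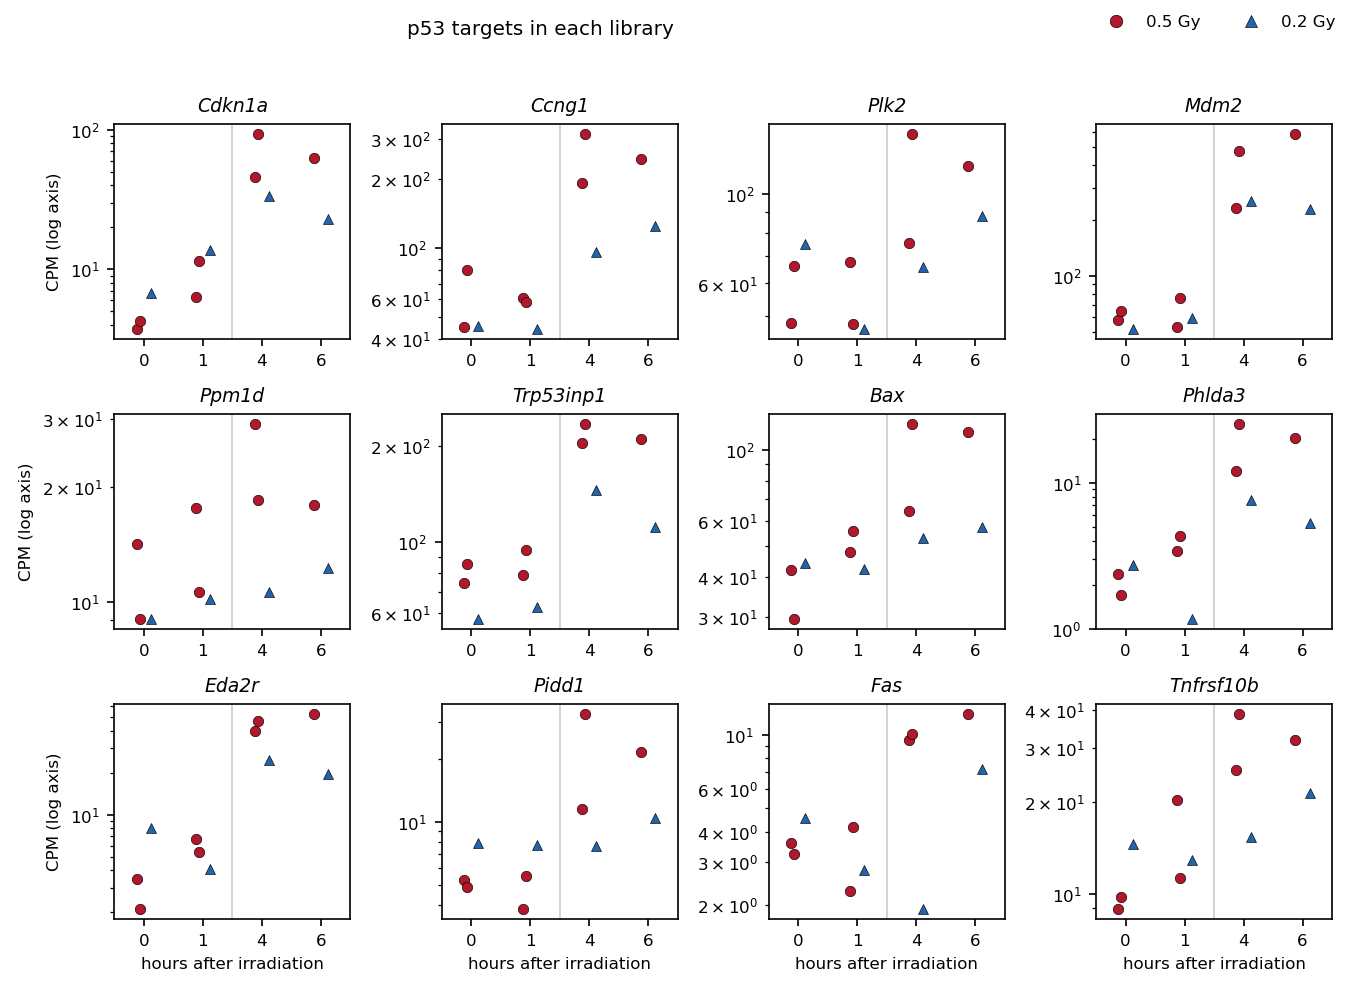
Level of 12 p53 targets in CPM (y axis, log scale) in each library of 0, 1, 4 and 6 h (x axis), red circles for 0.5 Gy and blue triangles for 0.2 Gy. At 4 and 6 h the blue triangles lie below all red circles of these times in 10 of the 12 panels, and Plk2 and Mdm2 overlap. Over all 39 targets this held for 18 (46.2%), against 11% of all genes tested.

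The genes that feed back onto p53 had a median late difference of -0.64 on the log2 scale, with 5 of 6 lower at 0.2 Gy. At 0 and 1 h 5 of the 6 were also lower at 0.2 Gy, with a median of -0.30. Mdm2, the ubiquitin ligase that degrades p53, stood at 234, 472 and 588 CPM after 0.5 Gy and at 255 and 230 CPM after 0.2 Gy. The groups overlapped through the first 4 h replicate of 0.5 Gy. The contrast was -0.48 on the log2 scale at 4 h alone and -1.36 at 6 h alone. Ppm1d, the phosphatase Wip1 that silences the ATM and p53 response, was at 29.2, 18.4 and 18.0 CPM against 10.6 and 12.3 CPM. Trp53inp1, which promotes p53 activity and autophagy, stood at 204, 234 and 211 CPM against 145 and 112 CPM, a difference of -0.75 ± 0.18 (SE) on the log2 scale. Zmat3, an RNA-binding target, was at 33.5 to 55.0 CPM against 29.6 and 32.7 CPM. In 3 of the 6 (50%, against 11% of all genes), Ppm1d, Trp53inp1 and Zmat3, both low-dose libraries lay below all high-dose ones. Early these 3 had differences of -0.42, -0.47 and 0.04 on the log2 scale. None of the 6 passed the test.

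The apoptosis genes showed the largest share of targets below in both 0.2 Gy libraries, 9 of 13 (69.2%, against 11% of all genes), and 12 of 13 had a lower mean. Their median difference was -0.70 on the log2 scale late and 0.12 early, when 6 of the 13 were lower. Phlda3, an inhibitor of AKT signalling, was at 12.1, 25.3 and 20.4 CPM after 0.5 Gy and at 7.56 and 5.29 CPM after 0.2 Gy. With a mean 2.99-fold higher at 0.5 Gy and a difference of -1.58 ± 0.50 (SE) on the log2 scale, it was the member with the largest difference among the 39 (adjusted p = 0.815 by edgeR). Early its difference was -0.61 on the log2 scale. Pidd1, the scaffold of the PIDDosome, stood at 11.5, 32.6 and 21.4 CPM against 7.67 and 10.4 CPM.

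The death receptors followed the same order. Eda2r, the receptor for ectodysplasin A2, was at 39.6, 46.9 and 52.8 CPM after 0.5 Gy and at 24.7 and 19.6 CPM after 0.2 Gy. Fas was at 9.49, 10 and 12.2 CPM against 1.93 and 7.21 CPM, and Tnfrsf10b, a TRAIL receptor, at 25.4, 38.8 and 32.0 CPM against 15.3 and 21.3 CPM. In all 3 receptors, which are among the 9 of 13 apoptosis genes above, the low-dose libraries lay below the high-dose ones. The same held for 11% of all genes, and none of the 3 passed the test.

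Of the genes of the mitochondrial arm, Bax, the pore-forming effector, was at 64.3, 121 and 113 CPM after 0.5 Gy and at 52.9 and 57.1 CPM after 0.2 Gy. Pmaip1, which encodes the BH3-only protein NOXA, a main effector of oocyte death, was far more variable. It stood at 11.7, 45.9 and 20.9 CPM at 0.5 Gy and at 21.9 and 10.4 CPM at 0.2 Gy, so that the doses overlapped, with a difference of -0.70 ± 0.69 (SE) on the log2 scale. Ei24 was at 43.3 to 58.5 CPM against 29.0 and 36.5 CPM. Apaf1, the core of the apoptosome, was at 24.5 to 32.4 CPM against 22.6 and 22.9 CPM. Siva1 differed by -0.21 on the log2 scale. The wider set of 21 BCL2 family and caspase genes had a median of -0.06 on the log2 scale, with 13 lower and 8 higher at 0.2 Gy. Of these, 3 lay below in both low-dose libraries (14.3%, against 11% of all genes). Early the median of the 21 was -0.31, with 13 lower at 0.2 Gy. Bik had the largest late difference, with 1.60 to 2.93 CPM against 1.30 and 0.801 CPM. It was lower at 0.2 Gy early as well, at 0.472 and 0.856 CPM against 1.41 to 1.76 CPM. On the log2 scale its difference was -1.25 early and -1.06 late. Cycs, cytochrome c, was higher at 0.2 Gy, at 45.7 and 54.4 CPM against 30.8 to 40.0 CPM. Early it had the opposite order, at 30.86 and 26.28 CPM against 38.6 to 66.35 CPM.

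Of 6 metabolic and stress targets, 5 were lower at 0.2 Gy, and their median log2 difference was -0.46. Early 3 of the 6 were lower, with a median of -0.05. Sesn2, which dampens mTORC1, was at 9.76, 24.9 and 27.0 CPM against 14.4 and 9.10 CPM and overlapped. Its difference on the log2 scale was nearly the same early (-0.85) and late (-0.81). Gdf15, a secreted stress cytokine, was low throughout, at 1.44 to 1.73 CPM against 0.667 and 0.842 CPM. Ddit4 was at 4.36 to 8.69 CPM against 3.41 and 4.33 CPM, and Tigar at 17.9 to 20.6 CPM against 14.2 and 17.0 CPM. The 6 repair targets had a median of 0.00 on the log2 scale, 3 lower and 3 higher. Polk, a translesion polymerase, was lower at 0.2 Gy (36.9 and 43.4 CPM against 52.2 to 63.3 CPM). Polh, another one, was higher (9.86 and 8.58 CPM against 4.16 to 7.30 CPM), as was Fancc of the Fanconi anaemia pathway (51.0 and 34.8 CPM against 23.3 to 32.0 CPM). Xpc, which recognises bulky lesions, differed by -0.41 on the log2 scale and overlapped.

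Of the 39 targets, 29 kept the direction of their late difference under all 16 alternatives tried and 10 took the other direction under at least 1. Those 10 were Aen, Bbc3, Cop1, Ddb2, Gadd45a, Gls2, Perp, Plk3, Rrm2b and Sesn1, and no direction is given for them. Fewer oocytes with an active response and less RNA per oocyte cannot be told apart in such bulk samples.

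**Figure D3:**
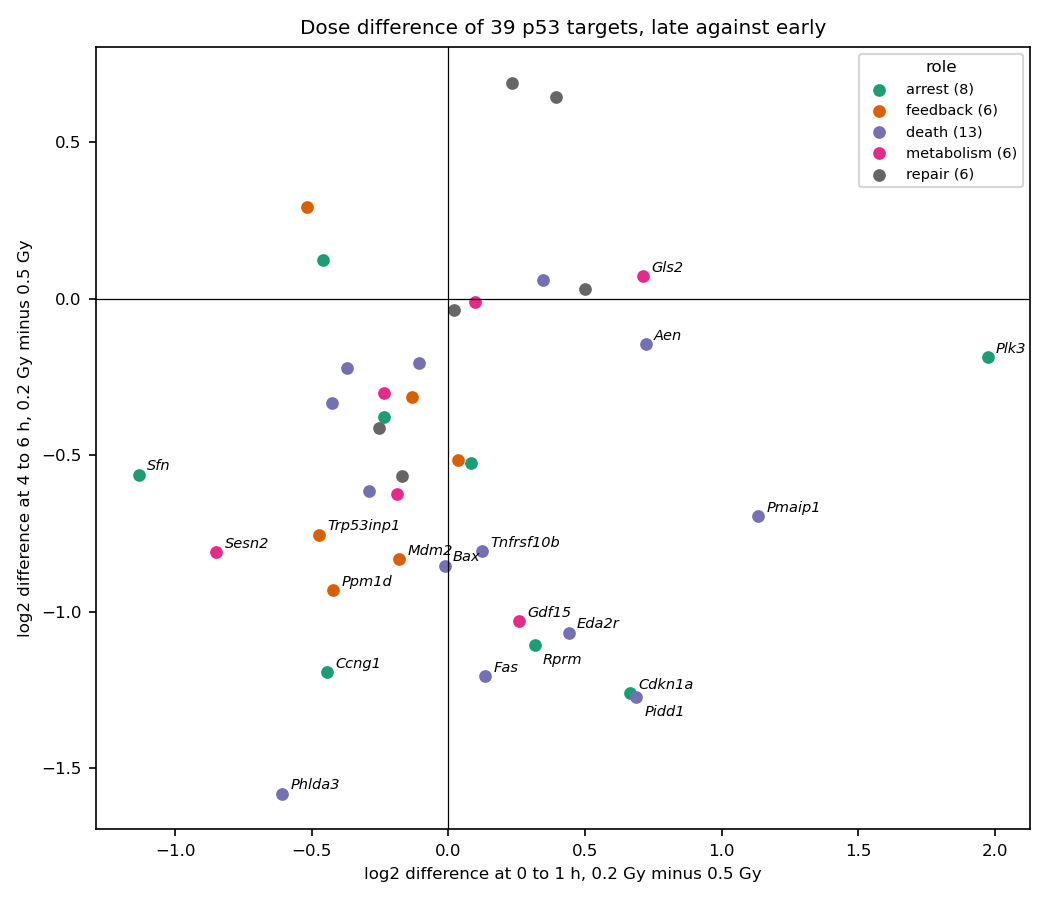
Late (y axis) against early (x axis) dose difference on the log2 scale, 0.2 Gy minus 0.5 Gy, for the 39 p53 targets coloured by role. Late, 32 of the points lie below 0, with a median of -0.53, while early 20 lie below 0 and the median is -0.01.

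Early, the 39 targets showed no common direction between the doses, with 20 of 39 lower at 0.2 Gy and a median of -0.01 on the log2 scale. The feedback targets alone had 5 of 6 lower early, with a median of -0.30. Late minus early, their median difference was 1.04 on the log2 scale at 0.5 Gy and 0.35 at 0.2 Gy. The test of whether the dose difference itself changed between the early and late libraries called 9 of 28162 genes (0.0320%), and none of them was a p53 target. These calls fell to 0 without the 0.2 Gy library of 0 h and to 1 without that of 1 h. Over the 16 alternatives the median late difference of the 39 stayed between -0.665 and -0.295 on the log2 scale, and the number of members lower at 0.2 Gy between 31 and 34.

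The list of 64 genes that the study took from fibroblasts as direct p53 targets gave a median of -0.36 on the log2 scale, with 52 lower at 0.2 Gy and 21 (32.8%, against 11% of all genes) below in both low-dose libraries. It shares members with the 39. Both 0.2 Gy libraries were above all of 0.5 Gy for 2 of the 64 (3.12%, against 11.2% of all genes), Mdm4 and Tex15, which were singled out here after their values were seen. Tex15, a germ cell factor of meiotic repair and transposon silencing, stood at 655 and 450 CPM after 0.2 Gy and at 243 to 274 CPM after 0.5 Gy. The study's cluster 7 of 18 genes, picked on the same 0.5 Gy libraries for rising after irradiation, is not independent evidence of a direction. Of these, 16 were lower at 0.2 Gy (median -0.69), and of the 15 genes of cluster 5, picked likewise, 14 were lower (median -0.74). Cluster 7 included Igfals (7.56 to 12.6 CPM against 4.6 and 3.09 CPM) and the splicing regulator Esrp2 (9.06 to 11.8 CPM against 5.34 and 2.93 CPM). In cluster 5, Stx19 stood at 4.48 to 5.74 CPM against 1.52 and 2.32 CPM. The histone gene Hist1h2ak shares 75% of its 30-base words with other genes, so that its share of the reads is uncertain.

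Lhx3, a LIM homeobox transcription factor known from pituitary and motor neuron development, was followed as a second marker gene beside Cdkn1a. It stood at 2.06, 5.08 and 6.30 CPM after 0.5 Gy and at 2.37 and 1.64 CPM after 0.2 Gy. The groups overlapped through the first 4 h replicate of 0.5 Gy. The difference of -1.16 ± 0.62 (SE) on the log2 scale had an interval from -2.49 to 0.18 and did not pass the test (adjusted p = 0.891 by edgeR). It was -0.60 at 4 h alone and -1.94 at 6 h alone. At 0 and 1 h Lhx3 was near the limit of detection at 0.5 Gy (0.0678 to 0.242 CPM) and slightly above it at 0.2 Gy (0.855 and 0.367 CPM), so that the early contrast had the opposite direction, 2.20 on the log2 scale. Of the 10 LIM homeobox genes 8 were lower late at 0.2 Gy (median -0.30), and the 3 named next were at low levels. Lhx6 was at 1.62 to 2.92 CPM against 0.704 and 0.962 CPM, Lhx5 at 0.622 to 1.28 CPM against 0.0741 and 0.481 CPM, and Lhx1 went the other way, at 0.188 to 0.30 CPM against 0.704 and 0.481 CPM.

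Of 4 genes, the 3 members of the p53 family and their inhibitor Mdm4, 2 were lower and 2 higher at 0.2 Gy. Trp63, the gene of TAp63α, stood at 78.3, 74.3 and 79.8 CPM after 0.5 Gy and at 127 and 52.7 CPM after 0.2 Gy, and its contrast was 0.73 on the log2 scale at 4 h alone and -0.60 at 6 h alone. Trp73, the gene of p73, had the largest difference of the 4, -0.56 on the log2 scale, and overlapped. Its direction turned with the unit (0.09 on the log2(TPM + 0.1) scale), and leaving out 1 library moved it between -0.99 and -0.27. It stood at 1.17, 5.04 and 5.18 CPM after 0.5 Gy, with replicate 1 of 4 h the lowest of the 5 late libraries, and at 2.67 and 2.48 CPM after 0.2 Gy. Trp53 was at 108 to 130 CPM against 97.8 and 107 CPM. Mdm4, the inhibitor of p53, was at 212 to 252 CPM against 271 and 263 CPM, a difference of 0.17 on the log2 scale that was higher in both low-dose libraries.

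Of 25 genes of double-strand break repair, 13 were higher and 12 lower at 0.2 Gy, and their median log2 difference was 0.04, and none had both low-dose libraries below all high-dose ones. In 5 of them (20%, against 11.2% of all genes) both low-dose libraries lay above. Atm, the kinase that senses the breaks, was at 42.5, 38.0 and 42.1 CPM after 0.5 Gy and at 55.9 and 55.9 CPM after 0.2 Gy. Prkdc, the catalytic subunit of DNA-PK in end joining, was at 23.4 to 32.7 CPM against 52.0 and 34.9 CPM, and Exo1, a resection nuclease, at 32.3 to 46.1 CPM against 67.5 and 48.0 CPM. Brca2 and Dclre1c, the nuclease Artemis, were the other 2, each with a difference of 0.40 on the log2 scale. For Brca2 the sign depended on the unit, with -0.31 on the log2(TPM + 1) scale. None of the 25 passed the test.

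**Figure D4:**
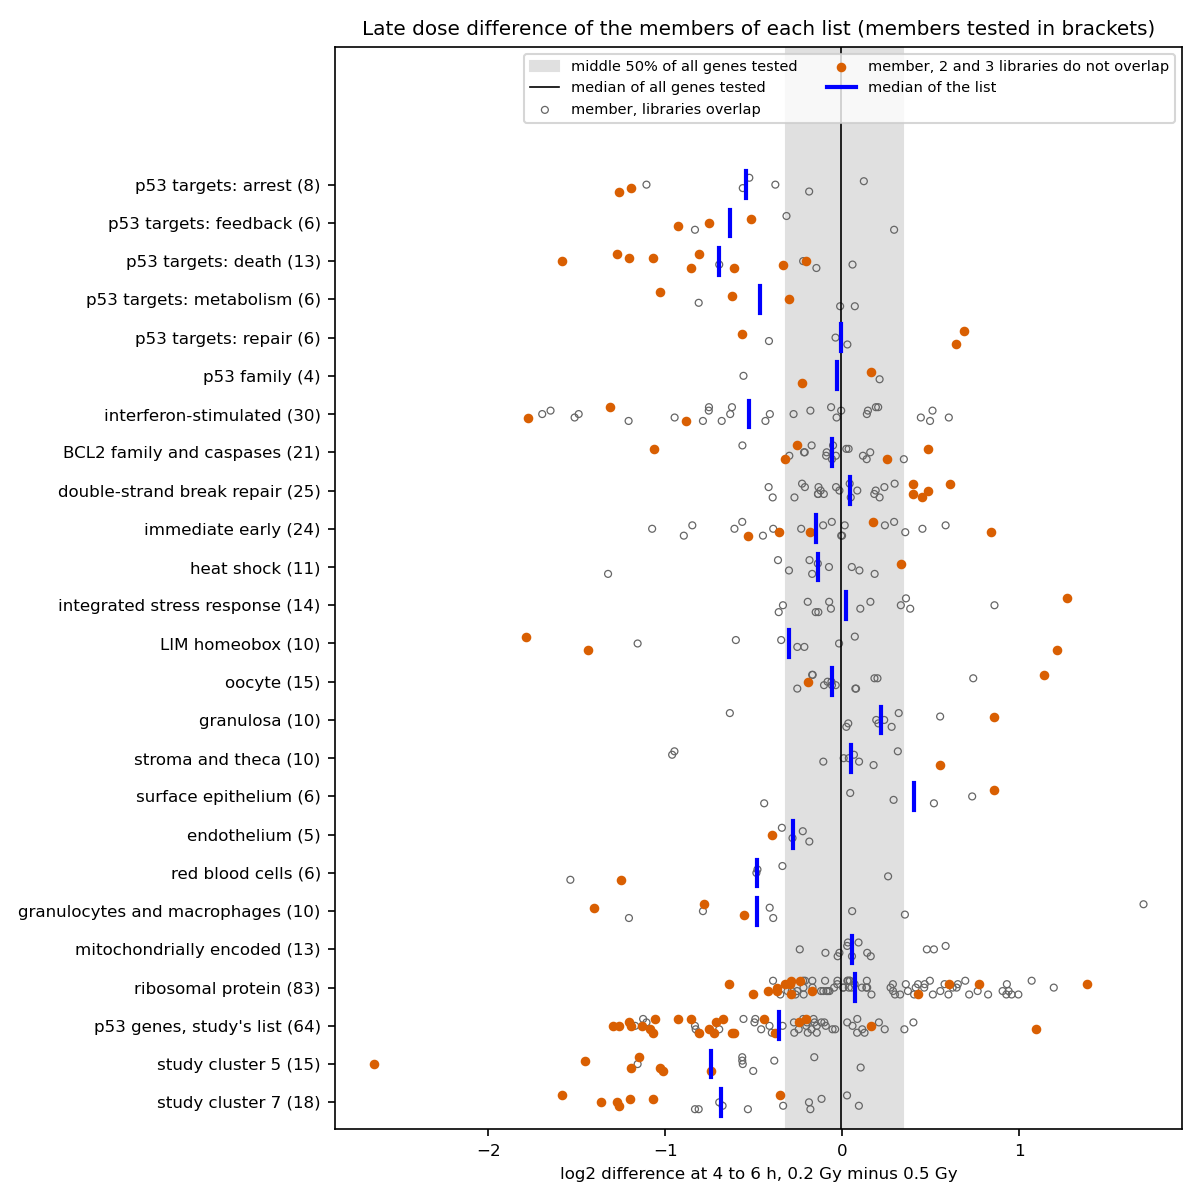
Late dose difference on the log2 scale, 0.2 Gy minus 0.5 Gy (x axis), of each member of the gene lists (rows), with the list median as a blue bar and the middle 50% of all genes tested as a grey band. Filled points are members whose 2 and 3 libraries do not overlap. The arrest, feedback and death targets have medians of -0.54, -0.64 and -0.70, outside the grey band, and double-strand break repair has 0.04. Other lists also have medians further from 0 than the median size over all genes tested (0.33). They are -0.53 for interferon-stimulated genes, -0.48 for red blood cell genes and -0.48 for granulocyte and macrophage genes. Early, the same lists had medians of -0.08, -0.945 and -1.53. Metabolic p53 targets have -0.46 (-0.05 early) and surface epithelium genes 0.40 (-0.27 early).

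The interferon-stimulated genes stood apart in 1 library. Their summed level was 305, 422 and 907 CPM in the 0.5 Gy libraries of 4 h replicate 1, 4 h replicate 2 and 6 h, and 440 and 606 CPM in those of 0.2 Gy. The 6 h library of 0.5 Gy was the highest of the 5 for 24 of the 30 genes, and the 6 h library of 0.2 Gy for the other 6. Usp18, the protease that removes ISG15, was at 2.76, 4.93 and 46.1 CPM after 0.5 Gy and at 4.52 and 11 CPM after 0.2 Gy. Ifit3 was at 0.350, 0.301 and 19.3 CPM against 0.260 and 3.85 CPM, and 62.5% of its 30-base words are shared with its neighbour Ifit3b. Oasl1 was at 1.60, 1.96 and 5.06 CPM against 0.371 and 1.64 CPM. Both low-dose libraries lay below all high-dose ones for 3 of the 30 (10%), Mx2, Rsad2 and Cmpk2, close to the 11% of all genes. Mx2, a dynamin-like antiviral GTPase, was at 12.4, 8.16 and 42.0 CPM against 6.23 and 5.93 CPM. Rsad2 was at 4.98 to 7.95 CPM against 2.22 and 4.97 CPM, and Cmpk2 at 6.30 to 12.5 CPM against 3.56 and 3.21 CPM. The list median was -0.53 on the log2 scale with all 5 libraries and 0.48 without the 6 h library of 0.5 Gy, where Usp18 was at 1.01 and Ifit3 at 2.64. With 1 library for each dose at 6 h this difference has no replicate.

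Among single genes of any function, the protein-coding ones with the smallest p-values among those that did not overlap, that differed by over 1 on the log2 scale and whose higher group averaged at least 1 CPM were named. None of them was called by edgeR (adjusted p between 0.528 and 0.75). Map3k7cl, a relative of the kinase TAK1, had the smallest p of all genes. It stood at 2.45, 2.14 and 2.63 CPM after 0.5 Gy and at 0.185 and 0.12 CPM after 0.2 Gy, 15.8-fold lower, while early all 6 libraries held 2.38 to 6.35 CPM. Its low-dose levels were a few reads each (1 read is worth 0.033 to 0.0639 CPM), so that the size of the fold is uncertain. Its difference of -3.93 ± 0.59 (SE) on the log2 scale had an adjusted p of 0.528 by edgeR and 4.79e-05 by DESeq2. Lpar2, a receptor for lysophosphatidic acid, was at 8.75, 9.14 and 11 CPM against 3.11 and 3.37 CPM. Its early levels were 3.91 to 5.29 CPM at 0.5 Gy and 4.36 and 4.40 CPM at 0.2 Gy, near the late low-dose ones, and its adjusted p was 5.43e-05 by DESeq2.

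The other genes with lower levels at 0.2 Gy were, after Ccng1, Fgl2, Ttc7, Trim9, Pdia5, Adamts17, Spata22 and Slc25a25. Fgl2, a fibrinogen-like protein, was at 32.2 to 54.7 CPM against 20.1 and 19.4 CPM. It was lower at 0.2 Gy early as well, at 26.4 and 28.1 CPM against 40.0 to 52.7 CPM (-0.72 on the log2 scale, against -1.11 late). Slc25a25, a mitochondrial carrier of ATP and magnesium, was at 8.79, 8.73 and 12.9 CPM against 3.45 and 2.73 CPM. Early it was at 2.78 to 5.45 CPM at 0.5 Gy and at 6.455 and 3.575 CPM at 0.2 Gy. That early contrast had the opposite direction, 0.485 on the log2 scale. Trim9, an E3 ubiquitin ligase best known from neurons, was at 19.8 to 33.5 CPM against 10.8 and 4.85 CPM. Pdia5, a protein disulfide isomerase, was at 25.4 to 44.6 CPM against 12.7 and 17.0 CPM, and it was lower at 0.2 Gy by nearly the same amount early (-1.27 against -1.18 late on the log2 scale). Ttc7 stood at 3.65 to 7.97 CPM against 1.19 and 1.76 CPM, and the metalloprotease Adamts17 at 5.10 to 9.67 CPM against 2.71 and 2.81 CPM. Spata22, a meiotic recombination factor, was at 1.09 to 1.71 CPM against 0.185 and 0.321 CPM, and 80% of its words are shared with a read-through gene.

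**Figure D5:**
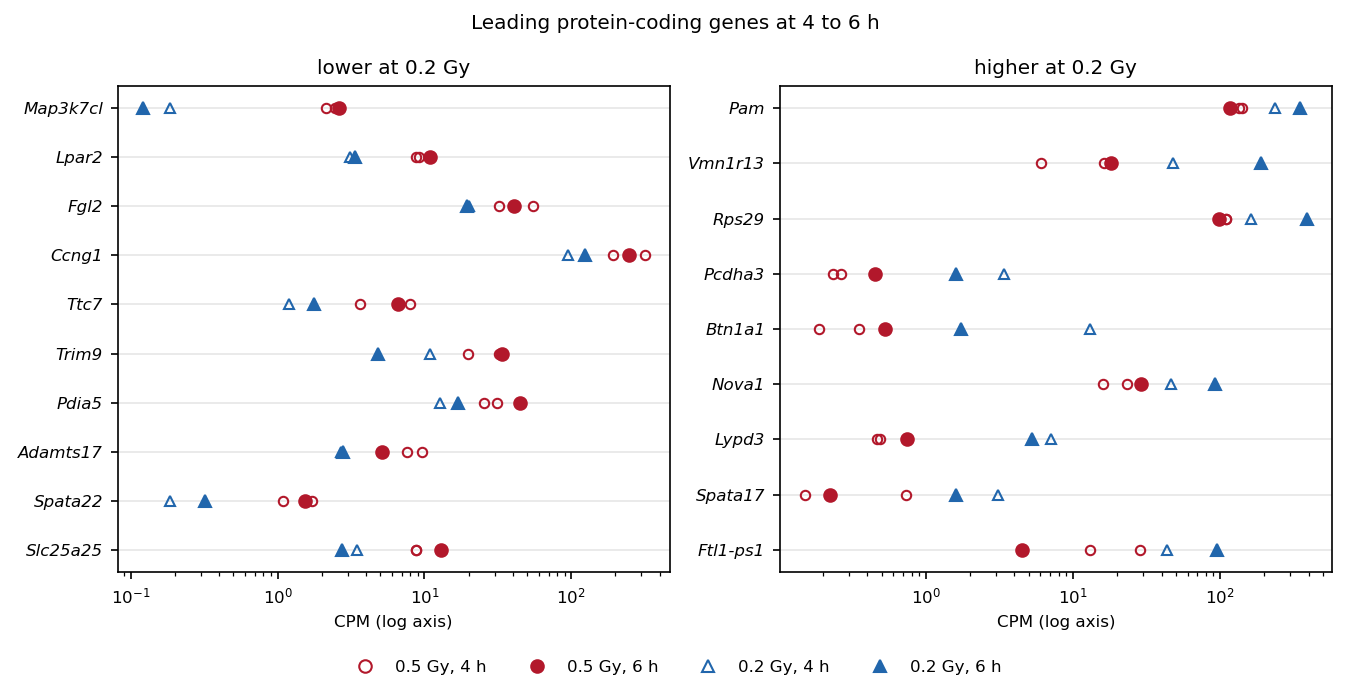
Level in CPM (x axis, log scale) of the 10 named genes lower and 9 named genes higher at 0.2 Gy in each of the 5 late libraries, open symbols for 4 h and filled for 6 h, red circles for 0.5 Gy and blue triangles for 0.2 Gy. The groups do not overlap in any row, which the choice of these genes required, and Map3k7cl is the most separate with 0.185 and 0.12 CPM against 2.14 to 2.63 CPM.

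Pam, the enzyme that amidates the ends of secreted peptides, led the genes with higher levels at 0.2 Gy. It stood at 236 and 350 CPM at 4 and 6 h after 0.2 Gy and at 141, 134 and 117 CPM after 0.5 Gy, a difference of 1.17 ± 0.23 (SE) on the log2 scale (adjusted p = 0.733 by edgeR, 0.00886 by DESeq2). Nova1, a splicing regulator best known from neurons, was at 46.2 and 92 CPM against 15.9 to 28.8 CPM. Lypd3 was at 7.04 and 5.29 CPM against 0.467 to 0.75 CPM. It was higher at 0.2 Gy early as well, at 4.333 and 3.544 CPM against 0.363 to 3.53 CPM. Btn1a1, a butyrophilin of the milk fat globule, was at 13 and 1.72 CPM against 0.188 to 0.525 CPM, but early it was at 0.686, 8.07, 3.63 and 7.20 CPM at 0.5 Gy and at 1.33 and 0.947 CPM at 0.2 Gy, the opposite order in 3 of the 4 high-dose libraries. Vmn1r13, annotated as a vomeronasal receptor, was at 47.5 and 188 CPM against 6.11 to 18.2 CPM late, and at 1.83 and 2.20 CPM at 0.2 Gy against 12.7 to 69.2 CPM at 0.5 Gy early. Spata17 was at 3.08 and 1.60 CPM against 0.150 to 0.739 CPM. Pcdha3 and Ftl1-ps1 share 62.5% and 77.1% of their words with other genes, so that their reads cannot be assigned with certainty.

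Ribosomal protein genes were uneven. Of 83, 50 were higher and 33 lower at 0.2 Gy (median 0.07), and 43 had their highest level in the 6 h library of 0.2 Gy. Rps29 was at 162 and 388 CPM against 98.1 to 110 CPM. It was higher at 0.2 Gy early as well, at 279 and 249.2 CPM against 137.9 to 214.4 CPM. Rps23 was at 97.6 and 361 CPM against 90.3 to 120 CPM late. Of the words of Rps29 21.4% are shared with other genes, and of those of Rps23 38.7%. The median was -0.27 on the log2 scale at 4 h alone and 0.46 at 6 h alone, where Rps23 went from -0.11 to 2.00, so that the direction of the list differed between the times. Both low-dose libraries lay above all high-dose ones for 4 of the 83, Rps20, Rps28, Rps29 and Rpl37 (4.82%, against 11.2% of all genes), and below for 11 (13.3%).

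With the times pooled, the other stress programmes had medians near that of all genes. The 24 immediate early genes had a median of -0.15 on the log2 scale, the 11 heat shock genes -0.14 and the 14 genes of the integrated stress response 0.02. The 10 stroma and theca genes had a median of 0.05 and the 47 tested of 67 replication-dependent histone genes 0.01. Between 4 h alone and 6 h alone, the median went from -0.24 to 0.11 for the immediate early genes, from -0.22 to 0.14 for the heat shock genes and from -0.46 to 0.29 for the histone genes. The 13 mitochondrially encoded genes had a median of 0.06 with the times pooled, but 12 of them were lower at 0.2 Gy at 4 h alone (median -0.26) and all 13 higher at 6 h alone (median 0.74). The 6 h library of 0.5 Gy was the lowest of the 5 late libraries for 12 of the 13, and without it their median was -0.19. Jund was the immediate early gene with the largest difference that did not overlap, at 7.74 to 11.1 CPM against 12.2 and 21.8 CPM, and 50.2% of its words are also in the gene model Gm11175. Chac1, which degrades glutathione, was at 0.488 to 0.856 CPM against 1.78 and 1.36 CPM.

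The label of the samples was checked on markers. The 15 oocyte genes summed to between 4941 and 7400 CPM in the late libraries, with a median dose difference of -0.06 on the log2 scale. Nlrp5, a maternal effect gene, was the only one among them over 1 on that scale, at 420, 783 and 1384 CPM against 2080 and 1713 CPM. With the times pooled it was higher by nearly the same amount early (1.14 both times). Its late difference was 1.78 at 4 h alone and 0.31 at 6 h alone. Markers of other ovarian cells were present in every late library, and none of these lists had a member at 0 there. Granulosa genes summed to 1364 to 2082 CPM and stroma and theca genes to 2246 to 3153 CPM. Red blood cell genes summed to 6012, 6129 and 2683 CPM at 0.5 Gy and to 4185 and 2733 CPM at 0.2 Gy, and their median log2 difference was -0.48. Early their median was -0.945, with 5 of 6 lower at 0.2 Gy. Hba-a1 was the red blood cell gene with the largest difference, at 821 to 2104 CPM against 834 and 244 CPM, and it shares 75.8% of its words with other genes. Endothelium genes summed to 97.0 to 128 CPM against 94.0 and 96.6 CPM (median -0.28 late and -0.41 early). Granulocyte and macrophage genes summed to 37.1 to 39.6 CPM against 32.4 and 23.1 CPM. Their median log2 difference was -0.48 late and -1.53 early, when all 10 were lower at 0.2 Gy. Granulosa genes had a median of 0.22, with Fshr at 4.32 to 12.4 CPM against 14.1 and 13.7 CPM, and surface epithelium genes of 0.40, with Lgr5 at 2.25 to 6.24 CPM against 7.93 and 8.66 CPM. Early the medians of granulosa and surface epithelium genes had the opposite sign, -0.43 and -0.27. The part of these cells in the dose differences was not tested.

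Before the change of the dose difference over time was read, 2 of the 6 early libraries stood apart. The 0.2 Gy libraries of 0 and 1 h held reads in 42402 and 42612 genes, against 35827 to 39035 in the other 11, and they correlated best with each other (r = 0.969 on log2 CPM over genes). Over all genes tested the median size of the dose difference was 0.44 on the log2 scale early and 0.33 late. Late, the correlation of a low-dose with a high-dose library had a median of 0.952 over 6 pairs, against 0.953 to 0.961 within 0.5 Gy and 0.951 within 0.2 Gy. Without both early low-dose libraries edgeR again called 0 genes late, with 1263 at an unadjusted p under 0.05, and the p53 targets had a median of -0.52. The change of the dose difference rests on these libraries, and in Vmn1r13 and the 3 genes given next both early low-dose levels were below all other libraries. Pam16 was at 8.28 and 9.04 CPM there and at 15.2 to 41.3 CPM in the other 9, Bmt2 at 10.6 and 14.5 CPM against 17.5 to 77.0 CPM, and Ccdc184 at 0.560 and 0.672 CPM against 1.16 to 117 CPM. In the other direction Pdpn was at 178 and 179 CPM in the early low-dose libraries, at 72.6 and 74.0 CPM in the late ones, and at 53.9 to 176 CPM at 0.5 Gy, with no call (adjusted p = 0.176 by edgeR). Nt5c2 was at 92 and 70.2 CPM early and 62.5 and 47.8 CPM late at 0.2 Gy, against 47.4 to 62.7 CPM early and 81.1 to 86.0 CPM late at 0.5 Gy. Mcidas was at 1.21 and 0.978 CPM early and 0.593 and 0.200 CPM late at 0.2 Gy, against 0.0371 to 0.204 CPM and 0.778 to 1.20 CPM.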

How the data were processed

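RNA of 13 oocyte libraries was analysed. The authors had quantified transcripts with salmon on mouse transcripts (GRCm38, Ensembl annotation) and deposited estimated counts and TPM values per transcript. Estimated counts were summed per gene (49585 genes by GENCODE identifiers) and rounded, and 402 of 130740 transcripts (0.318% to 0.495% of reads) had no gene and were left out. Depth was 15709549 to 30430104 estimated reads per library, so that 1 read is worth 0.033 to 0.0639 CPM. A negative binomial model was fitted in edgeR 4.0.16 (R 4.3.3, TMM, filterByExpr) to the 11 libraries of 0, 1, 4 and 6 h with a group for each dose and phase. The contrasts were late 0.2 minus 0.5 Gy and late minus early of that difference. The 2 libraries of 2.5 h were left out. Calls needed an adjusted p (Benjamini-Hochberg, all genes tested) under 0.05 and a log2 difference over 1. The scripts were tested on simulated data. DESeq2 1.42.0 and, on log2(TPM + 1) of the deposited TPM values, limma 3.58.1 were alternatives. The deposited tables of the authors' comparisons were not used.

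Named genes were Cdkn1a and Lhx3, the protein-coding genes leading each contrast (10 per direction late, 5 per direction for the change of the difference, groups not overlapping, 1 CPM or more on the higher side, filled by smallest p where none was called), the p53 targets, and of other lists called members and up to 4 with the largest difference. Some members outside this rule (Tex15, Usp18, Rsad2, Cmpk2, Brca2, Dclre1c, Rps20, Rps28 and Rpl37) were singled out after their values were seen. Values of 61 genes selected by the rule, 31 of which changed sign under an alternative, are not given. The labels tie the replicate numbers of 0.5 Gy at 0, 1 and 4 h to generations (correlations of deviations 0.132, 0.0791 and 0.111). The members and lists were chosen with earlier results of these data known. Shared sequence was measured as the percent of a gene's 30-base words that transcripts of another gene hold. The labels do not say that samples came from separate animals or cultures, so p-values measure only the spread between these samples. 1 gene that the rule selected is not reported here.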

Additional observations from a re-analysis of the deposited data

Results flagged for a closer look

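The dose difference changed between the early and the late libraries in 9 genes by edgeR's test of the difference itself. The calls fell to 0 without the 0.2 Gy library of 0 h, to 1 without that of 1 h, and to between 1 and 5 without any 1 library of 0.5 Gy other than replicate 1 of 0 h (8). On the log2 scale the change was 11.77 for Gm43972 (adjusted p = 0.0124), 8.59 for Gm25960, 7.97 for Gm25535, 5.53 for Gm22993, 6.32 for Gm23632, 7.39 for Vmn1r13 and 2.49 for Pam16, all with higher late differences, and -2.80 for Cisd3 and -7.01 for Gm15333. The first 5 are a lincRNA and short RNA genes that were at 0 to 0.153 CPM in both 0.2 Gy libraries of 0 and 1 h and at 1.30 to 10.8 CPM in the other 9 libraries, so that the fitted sizes are no bound. Cisd3 was at 53.8 and 46.0 CPM in those 2 libraries and at 4.35 to 7.42 CPM in the others. The 0.2 Gy library of 0 h was taken before irradiation, so it had received no dose. What sets these 2 libraries apart from the others was not tested.

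In the libraries of 2.5 h, which entered no comparison, the 39 p53 targets summed to 2240 CPM after 0.5 Gy and to 1210 CPM after 0.2 Gy. Both were above every library of the same dose at 0 and 1 h, where the sums were 1111 to 1178 CPM and 1086 to 1181 CPM. Cdkn1a stood at 57.4 CPM at 2.5 h after 0.5 Gy and at 18.6 CPM after 0.2 Gy, and Mdm2 at 267 and 103 CPM. There was 1 library of each dose, so this was not tested.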

How the results depend on the processing

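Late, edgeR called 0 genes with DESeq2's size factors, without a filter, with the 5 late libraries alone or with time as a term, and without both early libraries of 0.2 Gy, the last chosen after seeing the data. It called 1 at 4 h alone (Gm8399), 1 at 6 h alone (Gm10163) and 1 with the replicate block (AY036118), limma on TPM called 3 and DESeq2 63. Leaving out 1 late library gave 0 to 16 calls, the 16 without the 0.2 Gy library of 4 h, where the lone 6 h library is assumed to vary like the other groups. For the change of the dose difference the 9 calls became 22 without a filter, 39 with limma, 114 with DESeq2, 13 with the replicate block and 0 to 13 with 1 library left out. They were 0 and 1 without the 0.2 Gy libraries of 0 and 1 h, and 1 to 5 without any 1 library of 0.5 Gy other than replicate 1 of 0 h (8). Of the 13 calls with the replicate block (the labelled generation), 8 were among the 9. The median of the 39 p53 targets was -0.29 on the log2(TPM + 1) scale and -0.67 to -0.41 with 1 library left out. The median of the interferon genes was 0.23 at 4 h alone. Of 2411 values of the 151 genes that the naming rule selects or the text gives, 91 changed sign, in 37 genes. Of these, 31 have no value in the text, in part for that reason, and of the 1440 values of the 90 genes with values 10 changed sign, in 6 genes. Among the 39 p53 targets, 45 of 624 values changed sign, in 10 targets. Rps23 was at -0.11 at 4 h alone, Usp18 at 0.23 at 4 h alone, Trp63 at -0.60 at 6 h alone, and Brca2 at -0.31 and -0.34 on log2(TPM + 1) and log2(TPM + 0.1), where Trp73 was at 0.09. With 1 library left out, Rps23 ranged from -0.04 (without 0.2 Gy, 6 h) to 1.83, Usp18 from -1.99 to 1.01 and Ifit3 from -4.65 to 2.64 (both highest without 0.5 Gy, 6 h), Trp63 from -0.58 (without 0.2 Gy, 4 h) to 0.71, and Trp73 from -0.99 to -0.27. The cause was not tested. Depth limits the genes under about 1 CPM.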
